A study of Mus musculus with 847 samples.

Results

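The Fc gamma receptors bind the constant part of immunoglobulin G and are carried by microglia, macrophages, monocytes, neutrophils and natural killer cells. The group described here was chosen by name and holds 5 of the 21076 genes of the count table: Fcgr1, Fcgr3 and Fcgr4, the activating receptors, Fcgr2b, the inhibitory receptor, and Fcer1g, the signalling chain that the activating receptors share. In the activating receptors, binding of immune complexes leads to phosphorylation of a tyrosine motif (ITAM) in the Fcer1g chain, which recruits Syk and starts phagocytosis and the oxidative burst. Fcgr2b carries an inhibitory motif (ITIM) in its own tail and recruits phosphatases such as SHIP1, encoded by Inpp5d. The 2 kinds are often present on the same myeloid cell, and in the brain parenchyma microglia are the main cells known to carry them.

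The study measured RNA by sequencing in 15 brain regions of 59 mice, with 1 library per region and mouse and 847 libraries in all. All mice were of the inbred strain C57BL/6JN and the labels name no treatment or genetic change. Females and males were sampled at 3, 12, 15, 18 and 21 months, with 5 mice of each sex and age except 6 males at 21 months, and males alone at 26 months (5 mice) and 28 months (3 mice). Mice 1 to 15 are those of 12 and 26 months, mice 57 to 59 those of 28 months, and mice 16 to 56 those of the other ages. Differences of 12, 26 or 28 months from 3 months thus cannot be told apart from whatever followed the numbering. Levels at 26 and 28 months also come from males alone, beside both sexes at 3 months. Each library is bulk tissue of 1 labelled region, so fewer cells of a type and less RNA per cell cannot be told apart.

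The shallowest library held 481444 reads and the deepest 26756735, around a median of 6716032. Median totals per age lay between 6327609 reads at 18 months and 7490224 reads at 28 months. Defining markers of the labelled region were highest or second highest among the 15 regions in most cases. The exceptions were Mog and Mag in the corpus callosum and Prox1 in the posterior hippocampus, which ranked 3, Tbr1 in the entorhinal cortex, which ranked 5, and Slc6a2 in the pons, whose median was 0 CPM (counts per 1000000 reads). An alternative fit left out 3 libraries (entorhinal cortex of mouse 52, subventricular zone of mouse 3 and posterior hippocampus of mouse 38) and kept each count of calls for the receptor genes. They were picked as unlike their group, by a measure not reported here. The receptor genes were read at very different depths. A library held a median of 117 reads of Fcer1g, 52 of Fcgr3, 40 of Fcgr2b, 12 of Fcgr1 and 0 of Fcgr4, which was without a read in 472 of 847 libraries and passed the filter on low counts in no region. The other 4 genes passed it in all 15 regions.

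Of the 5 genes, 4 lie together on chromosome 1 of the GRCm38 build within 276 kb: Fcgr2b (chr1:170958617-170976547, minus strand), Fcgr4 (chr1:171018920-171029761, plus strand), Fcgr3 (chr1:171051174-171064935, minus strand) and Fcer1g (chr1:171229572-171234365, minus strand). Fcgr1 lies apart on chromosome 3 (chr3:96282909-96293969, minus strand). The 150 bases before the start of each gene are shown as a description, and these windows differ in the short motifs of myeloid and interferon factors. A link of the motifs to the age slopes below was not tested. The windows are RefSeq sequences of GRCm38.p6, 5′ to 3′ on the strand of the gene, and capitals mark the matches to 3 motifs that were chosen with the sequences in view.
Fcgr2b: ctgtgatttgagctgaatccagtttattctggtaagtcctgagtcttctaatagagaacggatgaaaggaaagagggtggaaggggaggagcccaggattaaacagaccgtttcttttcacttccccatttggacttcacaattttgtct
Fcgr3: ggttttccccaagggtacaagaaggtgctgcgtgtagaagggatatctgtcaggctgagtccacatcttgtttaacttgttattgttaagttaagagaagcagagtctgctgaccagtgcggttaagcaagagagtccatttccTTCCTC
Fcgr1: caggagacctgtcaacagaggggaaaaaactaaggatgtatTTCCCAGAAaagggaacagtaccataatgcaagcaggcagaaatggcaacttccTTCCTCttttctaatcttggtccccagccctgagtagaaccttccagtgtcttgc
Fcgr4: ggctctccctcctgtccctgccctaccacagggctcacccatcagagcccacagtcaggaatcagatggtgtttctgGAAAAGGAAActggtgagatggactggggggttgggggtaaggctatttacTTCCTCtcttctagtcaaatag
Fcer1g: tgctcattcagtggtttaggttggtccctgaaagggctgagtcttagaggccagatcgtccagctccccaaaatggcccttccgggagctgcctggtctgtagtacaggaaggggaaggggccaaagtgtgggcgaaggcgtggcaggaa
The core GAGGAA bound by PU.1 (Spi1), searched on both strands, was present in the windows of Fcgr3, Fcgr1 and Fcgr4, where it reads TTCCTC. Its first base stood 6, 55 and 22 bases before the start, and 14.5% of all 32851 windows of this length held it. For Fcgr3 the window belongs to the first of 2 listed starts (chr1:171059404-171059553). The windows of Fcgr2b (chr1:170976072-170976221) and Fcer1g (chr1:171234350-171234499) held none of the 3 motifs. Fcgr1 (chr3:96293970-96294119) also held the interferon gamma activated site TTCNNNGAA, 109 bases before the start, which 4.09% of windows hold. Fcgr4 (chr1:171018776-171018925) held a GAAA followed by another GAAA with 2 bases between, the form of an interferon response element, 73 bases before the start, which 1.59% of windows hold. RefSeq starts can differ from the gene ends given above. A match is a description of letters, and no binding was measured here.

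Fcgr2b and Fcgr3 arose from a common ancestor and still share sequence outside their cytoplasmic tails. Of the 50-base windows of the Fcgr3 transcripts, 12.8% were identical to a window of Fcgr2b, and 4.96% of the Fcgr2b windows were found in Fcgr3. Windows of Fcgr1, Fcgr4 and Fcer1g were found in no other gene. The counting program is not given in the sources used here, so some reads of Fcgr2b and Fcgr3 may be assigned to the other gene or not counted.

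Levels of different genes are compared per kilobase of exon only. On that scale the signalling chain was the most abundant member, with a mean over the 15 regions of 15.1 CPM per kb at 3 months, followed by Fcgr3 (3.52), Fcgr2b (0.783), Fcgr1 (0.596) and Fcgr4 (0.0618). At 28 months the order was the same, with 27.1 for Fcer1g, 5.50 for Fcgr3, 1.78 for Fcgr2b, 0.996 for Fcgr1 and 0.180 for Fcgr4. The annotated exons of Fcgr2b add up to 5790 bases over isoforms of unequal length, so its value per kb understates the level of a shorter isoform.

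Among the 4 genes that passed the filter, the inhibitory receptor spanned the widest range of region means at 3 months. The olfactory bulb had 13.45 ± 2.29 CPM of Fcgr2b (SD, n = 10) and its lowest library, at 9.09 CPM, lay above the highest of the 3-month libraries of the visual cortex, the next region, at 7.36 CPM. Next in order came 5.37 ± 0.99 in the visual cortex, 4.74 ± 0.75 in the caudate putamen, 4.61 ± 1.45 in the anterior hippocampus, 4.44 ± 1.05 in the choroid plexus and 4.43 ± 1.18 in the entorhinal cortex (CPM, SD, n = 9 or 10). The values went on with 4.35 ± 1.16 in the hypothalamus, 4.14 ± 1.05 in the motor cortex, 4.02 ± 0.92 in the corpus callosum, 4.01 ± 0.81 in the posterior hippocampus and 3.82 ± 1.03 in the subventricular zone. The lowest were 3.56 ± 1.03 in the pons, 2.93 ± 1.12 in the thalamus, 2.13 ± 1.07 in the medulla and 2.02 ± 0.91 in the cerebellum. Apart from the olfactory bulb, each region differed from its neighbour in this order by less than the larger of their SDs. Summed levels of 8 neutrophil genes (such as S100a8 and Ngp) were also highest in the olfactory bulb at 3 months, between 3.62 and 462.9 CPM with a median of 58.3, against a median of 1.72 CPM over all regions. The 12 homeostatic microglia genes gave between 483.9 and 609.0 CPM there. Their part in the Fcgr2b level was not tested.

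The region means spanned a narrower range for the other 3 of these genes at 3 months. Fcer1g was highest with 18.2 ± 1.75 in the caudate putamen, 16.5 ± 1.92 in the corpus callosum, 15.6 ± 3.86 in the olfactory bulb and 14.8 ± 2.46 in the pons (CPM, SD, n = 9 or 10). It stood between 13.8 CPM in the choroid plexus and 11.0 CPM in the hypothalamus in the next 10 regions, and at 6.89 ± 1.73 in the cerebellum, which lay below its neighbour by more than the larger SD. Fcgr3 was highest with 8.03 ± 2.64 in the olfactory bulb, 7.36 ± 0.69 in the motor cortex, 7.14 ± 1.14 in the anterior hippocampus and 6.99 ± 1.25 in the corpus callosum, and lowest with 4.77 ± 1.40 in the hypothalamus, 4.42 ± 1.14 in the thalamus and 2.88 ± 0.86 in the cerebellum, the last again apart from its neighbour by more than the larger SD. Fcgr1 was highest with 2.27 ± 1.46 in the olfactory bulb, 1.89 ± 0.80 in the caudate putamen and 1.86 ± 0.72 in the cerebellum, and lowest with 1.26 ± 0.51 in the hypothalamus, 1.23 ± 0.44 in the medulla and 1.18 ± 0.52 in the visual cortex, and none of its neighbours were apart by that measure. The cerebellum was the lowest region for Fcer1g, Fcgr3 and Fcgr2b, and for Fcgr1 it was among the 3 highest.

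Because the genes were chosen with their age changes in these data known, all age values are given as a description. Fcgr2b had the steepest mean slope of the 4 measurable genes, 0.0542 on the log2 scale per month (mean over 15 regions of the edgeR slope beside sex, jackknife SE over mice 0.0031), with single regions from 0.0149 in the visual cortex to 0.107 in the pons. Fcer1g followed with 0.0373 (SE 0.0023), from 0.0132 in the visual cortex to 0.0706 in the cerebellum. Fcgr3 had 0.0327 (SE 0.0031), from 0.0076 in the motor cortex to 0.0584 in the cerebellum, and Fcgr1 had 0.0270 (SE 0.0040), from -0.0014 in the olfactory bulb to 0.0565 in the medulla. Slopes past an adjusted p of 0.05 (edgeR, Benjamini-Hochberg over all genes of a region) were all positive, in 14 of 15 regions for Fcgr2b, 13 for Fcer1g, 11 for Fcgr3 and 8 for Fcgr1. The background was 6.37% of 214677 gene and region pairs. The choice of the genes used these slopes, so nothing is read from that count.

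**Figure D1:**
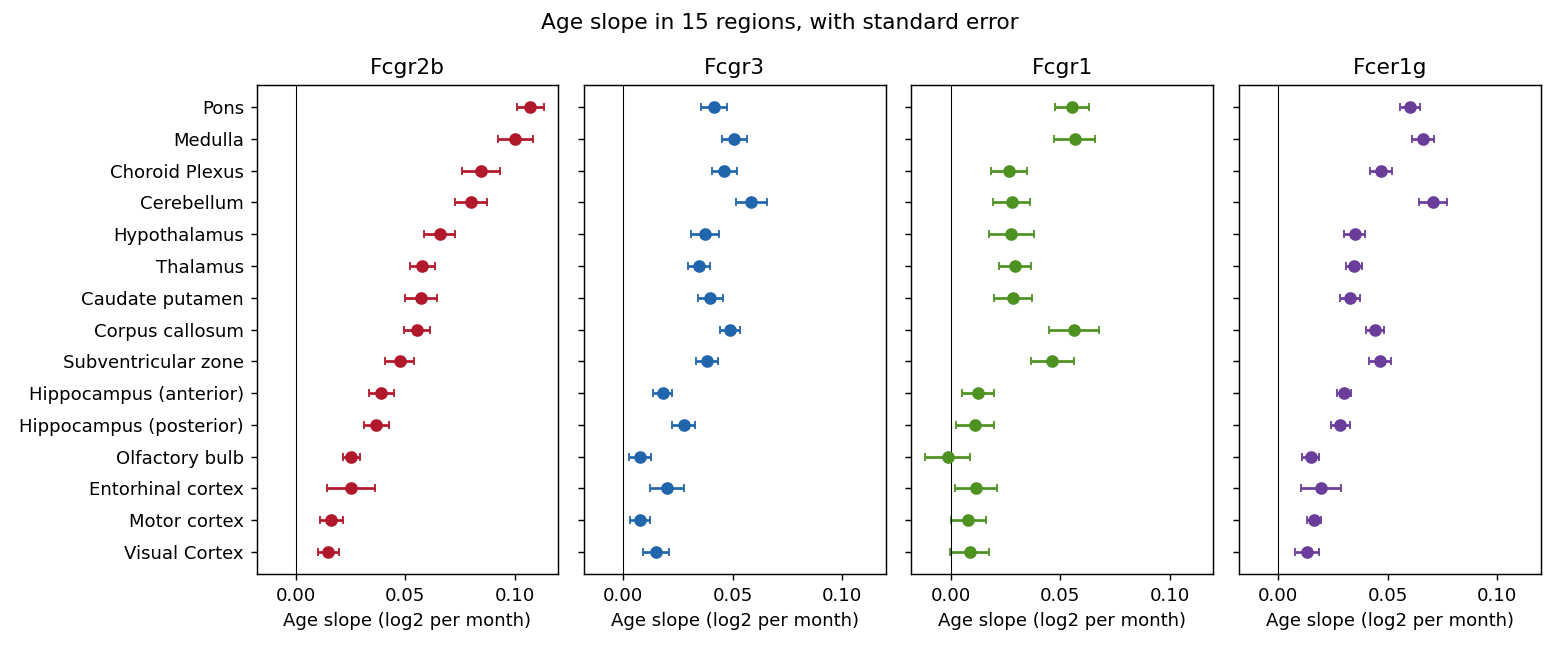
Age slope of 4 receptor genes (horizontal axis, log2 per month, with the standard error of the edgeR fit) in 15 brain regions (vertical axis, ordered by the slope of Fcgr2b). Fcgr2b spans 0.0149 to 0.107, while Fcgr3 stays at or below 0.0584; the pons, medulla, choroid plexus and cerebellum lead for Fcgr2b, and the visual, motor and entorhinal cortex and the olfactory bulb have its 4 smallest slopes.

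The pons and medulla, both of the hindbrain, had the steepest slopes of Fcgr2b, 0.107 (SE 0.0064) and 0.100 (SE 0.0078). In the pons the lowest, median and highest library had 2.06, 3.92 and 5.19 CPM at 3 months (n = 9) and 8.37, 12.57 and 21.5 CPM at 21 months (n = 11). The 4 libraries of 26 months had 13.49, 13.50, 13.50 and 15.4 CPM, and the 3 of 28 months had 14.95, 20.8 and 21.5 CPM. Every pons library of 21 months and later lay above every 3-month library of Fcgr2b, and the mean of 28 months was 5.37 times that of 3 months (log2 difference 2.62, SE 0.19). In the medulla, 3-month libraries of Fcgr2b had 0, 2.18 and 4.03 CPM (lowest, median, highest, n = 10), 21-month libraries 5.89, 8.25 and 17.2 CPM (n = 11), and the libraries of 28 months 4.64, 8.90 and 9.57 CPM. No medulla library of 28 months reached down to the 3-month range of Fcgr2b either, but their mean, 7.70 CPM, was below that of 21 months, 9.46 CPM, by less than the SD of either age. The libraries of 28 months are all male and those of 21 months come from both sexes. Fcgr2b was lower in males in the medulla (below), so this step mixes age with sex.

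The other members in the pons changed over a narrower range. Fcgr3, the low-affinity activating receptor, had 3.75, 5.26 and 9.71 CPM at 3 months (lowest, median, highest) and 10.7, 12.1 and 13.1 CPM in the 3 libraries of 28 months, a ratio of means of 2.01. Fcgr1, the high-affinity receptor, went from 1.18, 1.42 and 1.79 CPM to 2.30, 4.16 and 4.30 CPM, a ratio of means of 2.52 that rests on 145 reads at 3 months and 115 at 28 months. Fcer1g went from 12.0, 14.2 and 19.2 CPM to 27.0, 40.3 and 42.4 CPM, a ratio of 2.47. For all 3 of these genes the pons libraries of 28 months lay above all those of 3 months.

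In the corpus callosum, a white matter tract, activating and inhibitory receptors kept closer together. Fcgr2b had 2.52, 3.92 and 5.50 CPM at 3 months (n = 10) and 8.21, 8.42 and 13.5 CPM at 28 months, a ratio of means of 2.5. Fcgr3 had 5.55, 6.98 and 9.17 CPM at 3 months and 13.8, 15.4 and 17.4 CPM at 28 months, a ratio of 2.22. Fcgr1 had 0.909, 1.75 and 2.78 CPM at 3 months and 2.83, 5.61 and 6.65 CPM at 28 months, a ratio of 3.03, and its slope of 0.0564 (SE 0.011) was near the largest of the 15 regions for this gene. None of these 3 genes overlapped between 3 and 28 months in the corpus callosum.

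The motor cortex marked the other end. Fcgr2b had 2.44, 4.07 and 5.99 CPM there at 3 months (n = 10) and 4.26, 4.95 and 5.40 CPM at 28 months, so that the ages overlapped and the ratio of means was 1.17. In the caudate putamen, Fcgr2b stood at 4.74 ± 0.75 CPM at 3 months (n = 9), 7.74 ± 1.92 at 21 months (n = 11), 10.4 ± 3.7 at 26 months (n = 5) and 17.1 ± 3.1 at 28 months (n = 3), where its 3 libraries had 13.6, 18.7 and 19.2 CPM. Those 3 libraries were above all caudate putamen libraries of Fcgr2b up to 26 months, whose highest had 13.52 CPM. In the choroid plexus, which makes the cerebrospinal fluid, Fcgr2b went from 4.44 ± 1.05 CPM (n = 10) to 15.5 ± 3.1 CPM (n = 3), with 13.5, 14.0 and 19.0 CPM in the libraries of 28 months.

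**Figure D2:**
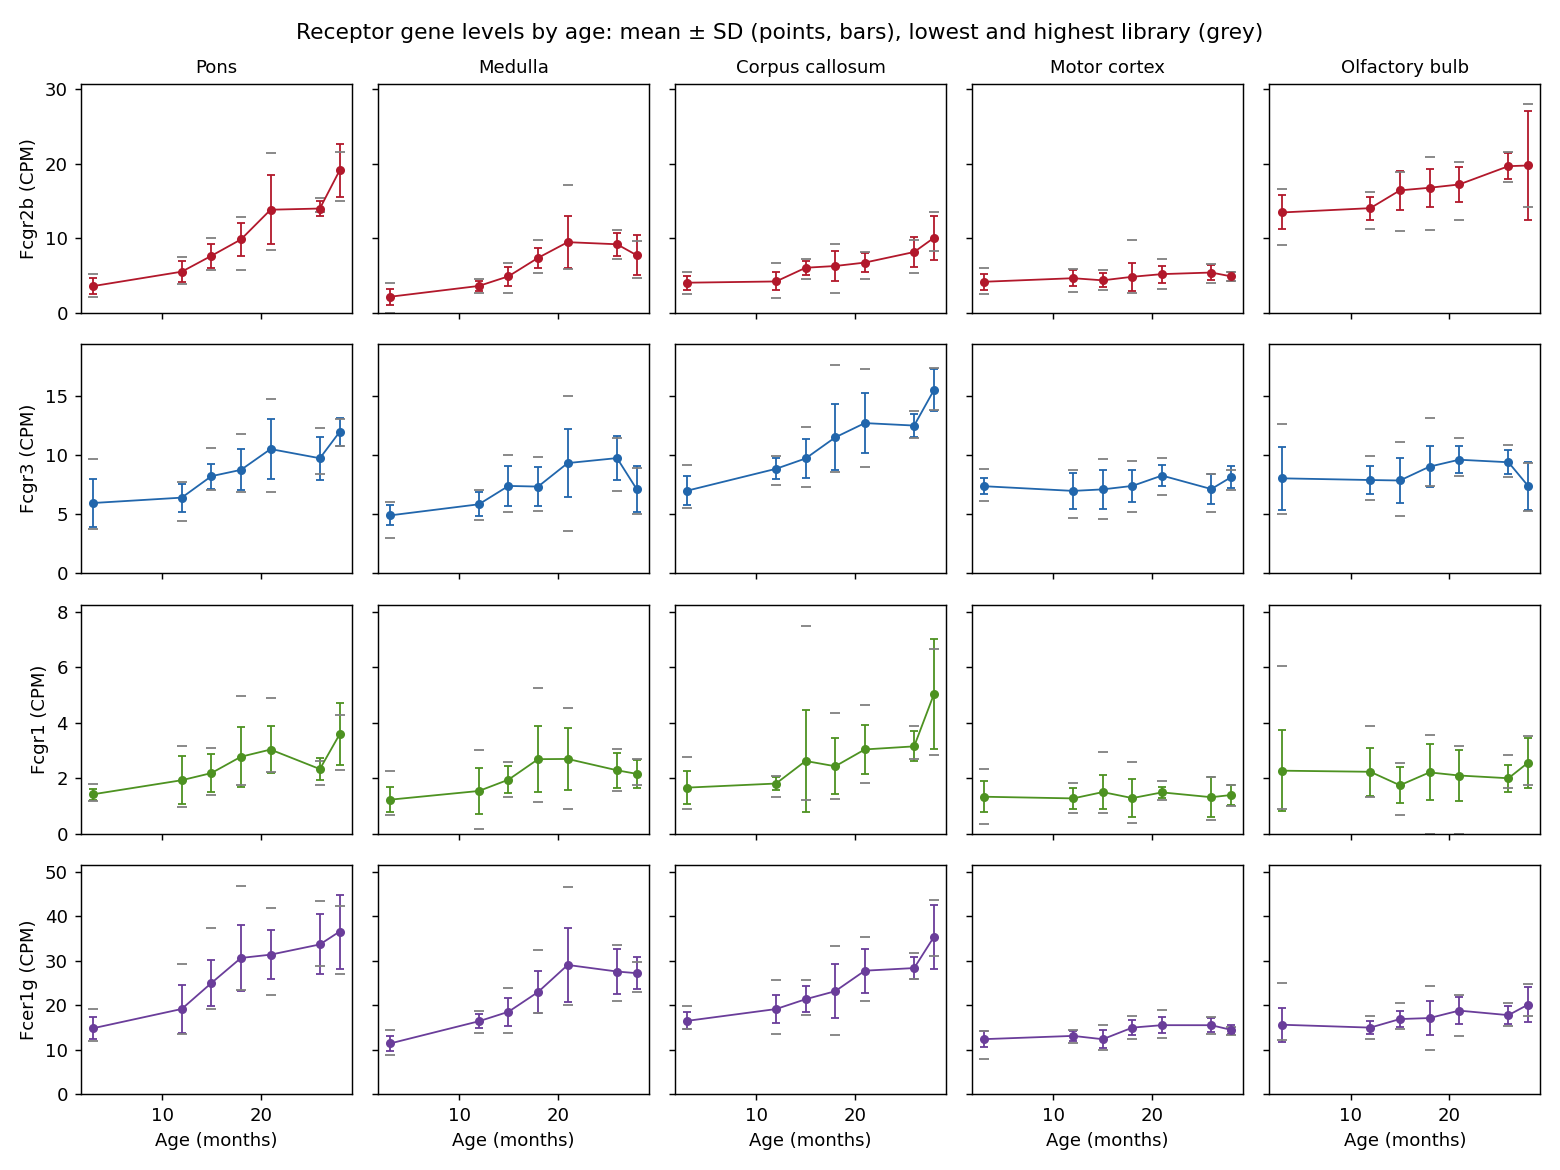
Level of 4 receptor genes (rows, CPM, each row with its own axis from 0) against age in months in 5 regions (columns); points are group means, bars the SD over libraries (3 to 11 libraries per group), and grey marks the lowest and highest library. Fcgr2b climbs in the pons from a mean of 3.56 to 19.1 CPM, stays between 4.15 and 5.38 CPM in the motor cortex and starts at 13.45 CPM in the olfactory bulb.

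At 28 months (3 libraries per region, 2 in the hypothalamus) the order of regions had changed for Fcgr2b. The highest means were 19.8 ± 7.27 in the olfactory bulb, 19.1 ± 3.61 in the pons, 17.1 ± 3.12 in the caudate putamen and 15.5 ± 3.06 in the choroid plexus (CPM, SD). They were followed by 11.6 ± 0.00 in the hypothalamus, 10.0 ± 2.99 in the corpus callosum, 8.23 ± 1.25 in the subventricular zone, 8.12 ± 1.36 in the anterior hippocampus and 7.70 ± 2.67 in the medulla. The lowest were 7.01 ± 2.06 in the posterior hippocampus, 6.92 ± 1.5 in the visual cortex, 6.89 ± 1.95 in the cerebellum, 6.40 ± 0.76 in the thalamus, 5.60 ± 2.48 in the entorhinal cortex and 4.87 ± 0.58 in the motor cortex. The pons had been in place 12 of 15 at 3 months and was in place 2 of 15 at 28 months. Fcer1g was highest at 28 months with 37.4 ± 3.73 in the caudate putamen, 36.5 ± 8.31 in the pons and 35.3 ± 7.21 in the corpus callosum, and lowest with 14.7 ± 2.49 in the entorhinal cortex and 14.5 ± 1.00 in the motor cortex. Fcgr3 was highest with 15.5 ± 1.80 in the corpus callosum, 14.7 ± 3.05 in the caudate putamen and 12.4 ± 0.86 in the choroid plexus, and lowest with 6.36 ± 1.37 in the thalamus and 6.20 ± 1.09 in the visual cortex. Fcgr1 was highest with 5.03 ± 1.98 in the corpus callosum, 3.58 ± 1.11 in the pons and 3.53 ± 1.02 in the caudate putamen, and lowest with 1.40 ± 0.38 in the motor cortex and 1.09 ± 0.14 in the visual cortex. With 2 or 3 libraries per region, neighbours in these orders were not compared.

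Counted over regions, all libraries of 21 months lay above all libraries of 3 months in 7 of 15 regions for Fcgr2b, 6 for Fcer1g, 2 for Fcgr3 and 1 for Fcgr1, beside 0.274% of all gene and region pairs. At 26 months the counts were 10, 9, 6 and 0 (1.18% of pairs), and at 28 months 10, 10, 7 and 2 (3.87% of pairs). The 3 comparisons share the 3-month libraries, and their sizes are 2 to 11 libraries against 9 or 10. Those of 26 and 28 months also set males of other blocks of mouse numbers against both sexes at 3 months.

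Fcgr4 could be followed only as pooled reads, since most libraries held none. Over all libraries of a group, 3-month values ran from 1 read in the entorhinal cortex (0.0158 CPM) to 16 reads in the olfactory bulb (0.331 CPM), where 11 of the 16 came from mouse 33. In the medulla, 8 reads in 4 of 10 libraries at 3 months (0.0791 CPM) stood beside 49 reads in 8 of 11 libraries at 21 months (0.423 CPM) and 38 reads in 5 of 5 libraries at 26 months (0.602 CPM), and 4 reads in 2 of 3 libraries at 28 months (0.180 CPM). The pons had 17 reads in 7 of 9 libraries at 3 months (0.168 CPM) and 55 reads in 9 of 11 at 21 months (0.474 CPM). In the motor cortex the 3 libraries of 28 months held no read of Fcgr4, which allows up to 0.104 CPM (3 reads of their total, counting error only). In the olfactory bulb, the 10 libraries with 3 or more Fcgr4 reads had summed neutrophil genes of 9.89 to 808.2 CPM (median 141.3). The 14 libraries with 1 or 2 reads had a median of 41.1 CPM and the 34 without a read one of 54.0 CPM. The library with the most Fcgr4 reads, 19 in mouse 47, had 26.2 CPM of neutrophil genes. Their part in Fcgr4 was not tested.

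The balance of activating to inhibitory receptors was expressed in each library as the log2 ratio of Fcgr1, Fcgr3 and Fcgr4 reads to Fcgr2b reads, with 0.5 added to both. It needs no scaling by library size, but in libraries with few receptor reads the added 0.5 and counting error weigh more. Its level also reflects the unequal lengths of the transcripts, so its change is the quantity of interest. The mean over regions went from 0.894 at 3 months (1.86 activating reads per Fcgr2b read) through 0.742 at 12 months and 0.475 at 21 months to 0.354 at 28 months (1.28 reads). The mean slope was -0.0231 on the log2 scale per month (jackknife SE 0.0019). It was below 0 in all 15 regions, by more than 2 SE in 8 of them, and leaving out each mouse in turn gave -0.0239 to -0.0226. In the 826 libraries with at least 20 receptor reads the mean slope was -0.0215.

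Regions differed widely in this balance. In the pons the ratio was 1.08 ± 0.38 at 3 months (SD, n = 9), with libraries between 0.513 and 1.62, and -0.250 ± 0.199 at 28 months (n = 3), with libraries at -0.452, -0.243 and -0.056, so that Fcgr2b reads exceeded those of the 3 activating receptors in every one of these pons libraries. The pons slope was -0.0607 per month (SE 0.0052). The medulla slope was -0.0628 (SE 0.0098), and -0.0442 (SE 0.0065) without the 2 medulla libraries that held fewer than 20 receptor reads. The slope was -0.0394 (SE 0.0091) in the cerebellum, -0.0383 (SE 0.0065) in the choroid plexus and -0.0318 (SE 0.0082) in the thalamus. In the 56 thalamus libraries with at least 20 receptor reads it was -0.0226 (SE 0.0070). In the corpus callosum the ratio was 1.12 ± 0.38 at 3 months (n = 10) and 1.07 ± 0.18 at 28 months (n = 3), and its slope of -0.00078 (SE 0.0069) changed sign under some of the alternatives, for example 0.0065 (SE 0.0080) in mice 16 to 56 alone. The visual cortex was similar, with a slope of -0.0011 (SE 0.0068), which was 0.0021 without mouse 58. The olfactory bulb had more Fcgr2b than activating reads at every age, with a ratio of -0.402 ± 0.568 at 3 months (n = 10) and -0.872 ± 0.331 at 28 months (n = 3).

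**Figure D3:**
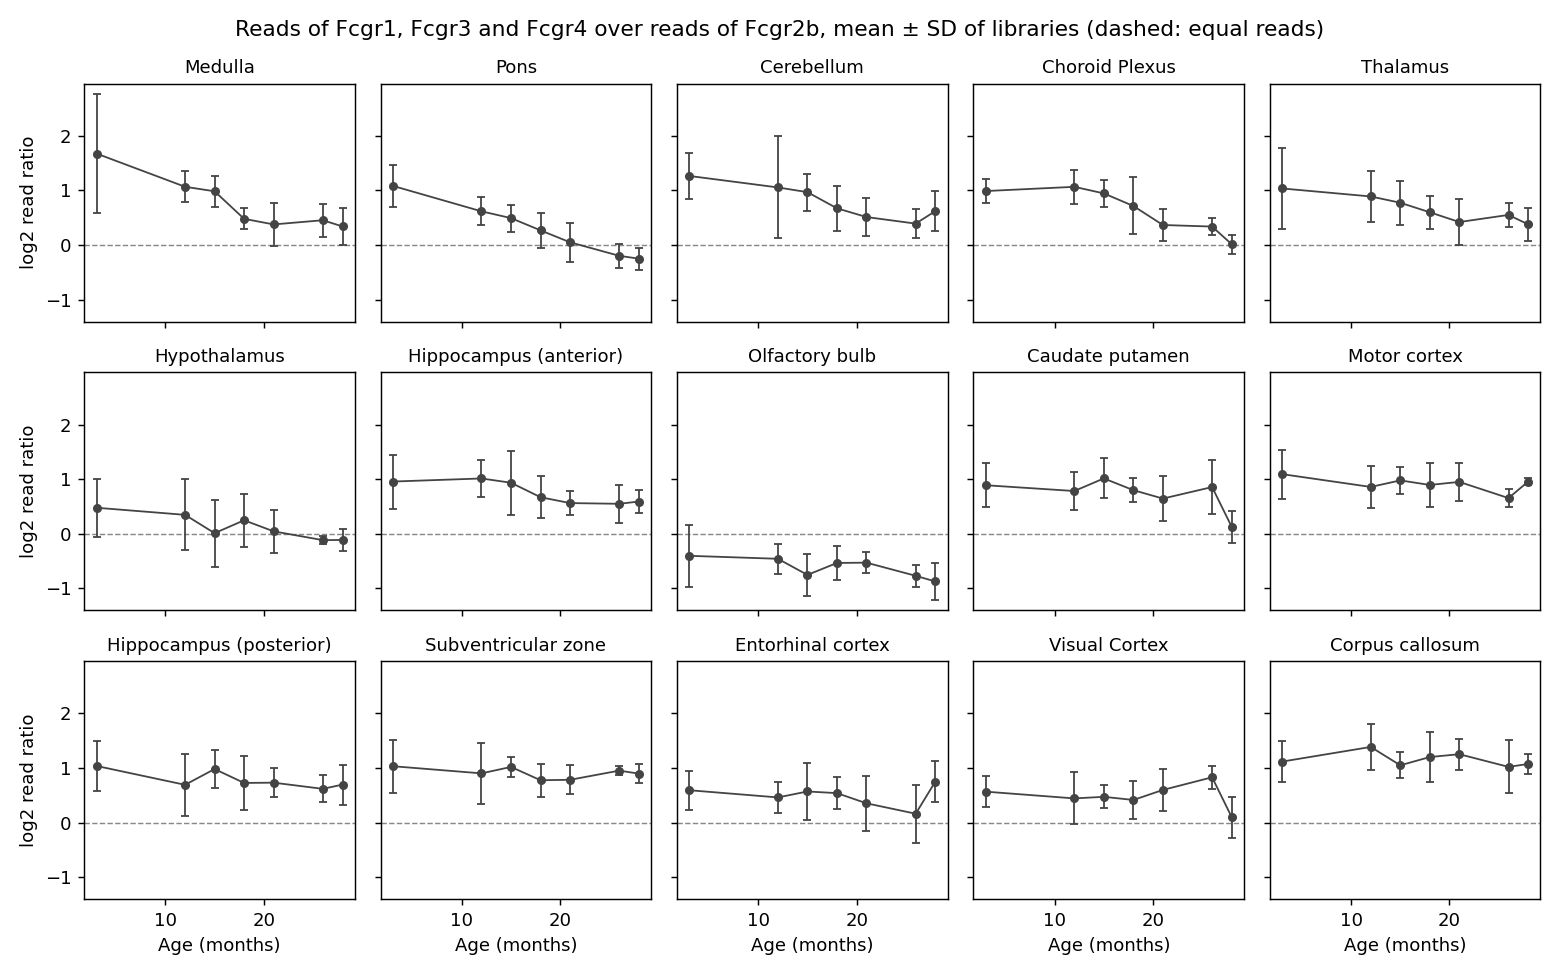
Log2 ratio of summed Fcgr1, Fcgr3 and Fcgr4 reads to Fcgr2b reads (vertical axis) against age in months in each of 15 regions, ordered from the steepest to the flattest slope; points are means and bars the SD over libraries, and the dashed line marks equal reads. The pons crosses the line between 21 and 26 months, from 0.050 to -0.198, the olfactory bulb lies below it at all ages, and the corpus callosum stays between 1.02 and 1.39.

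Since microglia carry these receptors, their marker genes were read beside them. The mean of 12 homeostatic microglia genes had slopes of -0.0035 in the visual cortex to 0.0286 in the medulla, with a mean over regions of 0.0135 per month, and 108 of 180 gene and region pairs rose, 3 fell and the rest did not pass. Among them Gpr34, a lysophospholipid receptor, rose in 12 regions and Cx3cr1, the fractalkine receptor, in 11. Csf1r rose in 10 regions and fell in 2, Fcrls rose in 3 and fell in 1, and P2ry12 rose in 1. With that mean as a covariate, the mean slope was 0.0386 for Fcgr2b, 0.0243 for Fcer1g, 0.0197 for Fcgr3 and 0.0124 for Fcgr1. Regions with a positive slope past the threshold then numbered 14 for Fcgr2b, 11 for Fcer1g, 5 for Fcgr3 and 2 for Fcgr1, beside 5.55% of all pairs. The mean of 14 activated microglia genes had a slope of 0.0361 (range 0.0060 to 0.0679), and 130 of 204 pairs rose and 0 fell, led by Gpnmb and Tyrobp in 13 regions each and Cst7 in 12.

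Markers of other cells that carry Fc gamma receptors, and of vessels and blood, were counted in the same way. Of 7 border macrophage genes, 10 of 87 pairs rose and 5 fell, and 8 of the 10 belonged to Ms4a7, while the mannose receptor Mrc1 rose in none and fell in 1. Neutrophil genes rose in 18 of 69 pairs and fell in 2. Monocyte genes rose in 3 of 37 pairs and fell in 2, B and plasma cell genes in 4 of 16 and 0, NK cell genes in 3 of 3 and 0 (1 of 5 genes tested), T cell genes in 1 of 9 and 0, and dendritic cell genes in 7 of 42 and 0. The NK cell pairs are all of Nkg7, which was at 0 in 412 of 847 libraries and was tested in 3 regions. The filter on age and sex groups can pass so sparse a gene where 1 group is high, so nothing is read from that count. Endothelial genes rose in 6 of 75 pairs, choroid plexus epithelium genes in 7 of 60 with 2 falling, and blood genes (haemoglobins and Alas2) in 9 of 45. DESeq2, fitted to more pairs of most of these lists, called other numbers rising: 5 of 120 neutrophil, 8 of 75 NK cell, 12 of 75 T cell, 3 of 75 choroid plexus epithelium and 5 of 45 blood pairs. Over all regions, the summed level of the border macrophage genes had a median of 11.45 CPM at 3 months and 12.25 at 28 months, and that of the neutrophil genes 1.72 and 4.96 CPM. The neutrophil genes Camp, Mmp8, Ltf and Retnlg were at 0 in 504, 495, 452 and 441 of the 847 libraries. The part of these cells in the receptor slopes was not tested.

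The signalling genes downstream were followed in lists chosen by function, beside a background of 6.37% of all pairs rising and 5.1% falling with a median slope of -0.0001. Of 19 genes that act with or below the ITAM, 101 of 267 pairs rose and 4 fell (median slope 0.0136). Tyrobp, the sister chain of Fcer1g also named DAP12, rose in 13 regions and the exchange factor Vav1 in 10. The kinase Syk itself rose in 2 of 15 regions (mean slope 0.0102), and Vav3 fell in 2. Of 11 genes of phagocytosis and the NADPH oxidase, 96 of 154 pairs rose and 0 fell (median slope 0.0252), with the oxidase subunit Cyba in 13 regions and the integrin chain Itgb2, the GTPase Rac2 and the catalytic oxidase subunit Cybb in 12 each.

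On the inhibitory side, 14 further receptors with an ITIM were tested, and 77 of 157 pairs rose and 1 fell (median slope 0.0250). Lilrb4a and Cd33 rose in 12 regions each and the collagen receptor Lair1 in 11, and Ceacam1 fell in 1. Of the phosphatases and adaptors that such motifs recruit, 30 of 135 pairs rose and 6 fell (median slope 0.0041). Ptpn6, which encodes SHP-1, rose in 12 regions and Inpp5d, which encodes SHIP1, in 9, while the adaptor Dok3 fell in 3.

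Other receptors that signal through an ITAM partner rose in 42 of 72 pairs and fell in 0, with Trem2 in 12 regions and Itgax, Siglech and Clec5a in 9 each. The lists share genes, so their counts are not independent. Trem2, Itgax and Tyrobp are also counted among the activated microglia genes, and Siglech and Fcrls among the homeostatic ones. Jchain is counted with the immunoglobulin genes and with those of B and plasma cells. Other Fc receptors and proteins that bind IgG rose in 16 of 58 pairs and fell in 1, and 13 of the 16 belonged to B2m, the light chain of class I molecules and of the neonatal Fc receptor. Fcgrt, the heavy chain of the neonatal Fc receptor, passed in no region (mean slope -0.0017). Of 10 immunoglobulin genes only Jchain was in the table, so the ligand was not measured, and Jchain rose in 4 of the 10 regions in which it was tested. Of 8 myeloid and interferon regulators, 56 of 120 pairs rose and 1 fell: among them Irf8 rose in 12 regions and Spi1 (PU.1) in 11, while Cebpb rose in 3 and fell in 1. Of 10 interferon response genes, 103 of 150 pairs rose and 0 fell, led by Ifi27l2a, Irf7, Oasl2 and Ifit3 in 12 regions each.

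The other genes around the chromosome 1 cluster were counted as well. Of 23 other genes tested within 200 kb of the receptor genes, 0 rose in 10 or more regions, beside 1.66% of all genes. In the same neighbours, 22 of 300 pairs rose (7.33%) and 31 fell. Arhgap30 rose in 7 regions and Nectin4 in 6, and Tomm40l, close to Fcer1g, fell in 8.

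The genes whose pattern over the 105 region and age means was most like that of each member were found by Pearson's r of mean log2 CPM among 14180 genes. These points share libraries and regions, so r is a description. Fcer1g was closest to the complement genes C1qa and C1qc (0.971 each) and C1qb (0.965). Fcgr3 was closest to Lag3 (0.914), Cd53 (0.892) and Laptm5 (0.889). Fcgr2b had lower values, 0.806 with Fermt3, 0.795 with Plek and 0.780 with Adgre1, and Fcgr1 had 0.838 with Cyba, 0.824 with Lat2 and 0.820 with Mpeg1. The low-count Fcgr4 was closest to Nlrc5 (0.774), Fermt3 (0.737) and Evi2b (0.733). Fcgr2b correlated with Fcgr3 at 0.666 and with Fcer1g at 0.669.

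Sex was not used to choose the genes and was tested at the 5 ages that hold both sexes. With 1 value per mouse (the mean over its regions of log2 CPM minus the mean of the region), Fcgr2b averaged -0.0014 in 25 females and -0.152 in 26 males, Fcer1g 0.0066 and -0.102, Fcgr3 0.0089 and -0.0911, and Fcgr1 -0.0006 and -0.0625. In limma with age as a factor, males were lower by 0.168 on the log2 scale for Fcgr2b (male minus female -0.168, SE 0.032, adjusted p = 0.000668). The differences were -0.121 for Fcer1g (SE 0.025, adjusted p = 0.00148) and -0.111 for Fcgr3 (SE 0.033, adjusted p = 0.0257). Fcgr1 had a difference of -0.069 (SE 0.052, adjusted p = 0.449). Over all 13753 genes, 4.51% were called lower in males and 7.84% in either direction. No single mouse left out ended a call for level.

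The sexes parted with age. At 3 months females and males averaged -0.446 and -0.30 for Fcgr3 and -0.473 and -0.405 for Fcer1g (5 mice each), so that females were not higher. At 21 months the means were 0.399 in 5 females and 0.108 in 6 males for Fcgr3, and 0.415 and 0.146 for Fcer1g. The lowest 21-month female lay above the highest 21-month male for both Fcgr3 and Fcer1g, as it did for 2.61% of 13951 genes. The slope of Fcgr3 was 0.0456 per month in females (SE 0.0033) and 0.0226 in males (SE 0.0030), and the difference of slopes was -0.0231 (SE 0.0044, limma adjusted p = 0.00301). For Fcer1g the slopes were 0.0477 and 0.0301 and the difference -0.0176 (SE 0.0034, adjusted p = 0.00316), beside 2.07% of all genes with a lower slope in males. Among the marker genes, 6 of 13 activated microglia genes (median difference -0.0120) and 2 of 2 neutrophil genes (-0.110 for S100a8, -0.189 for Lcn2) also had a lower slope in males, and of 12 homeostatic genes 1 had a lower and 1 a higher slope. With the microglia mean of each mouse as a covariate the difference was -0.0210 for Fcgr3 (limma adjusted p = 0.00314) and -0.0156 for Fcer1g (adjusted p = 0.00339). The part of activated microglia and neutrophils was not tested. Neither difference of slopes passed in the 34 mice with all 15 regions (limma adjusted p = 0.0854 for Fcgr3 and 0.153 for Fcer1g). In those mice 0.0423% of 14177 genes passed in either direction, beside 3.59% in all 51 mice. Fcgr2b had 0.0628 and 0.0499 with a difference of -0.0129 (SE 0.0055, adjusted p = 0.178), and Fcgr1 0.0362 and 0.0129 with -0.0234 (SE 0.0076, adjusted p = 0.0656); for Fcgr1 the call was gained without mouse 21 (0.0359) or mouse 26 (0.0404).

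**Figure D4:**
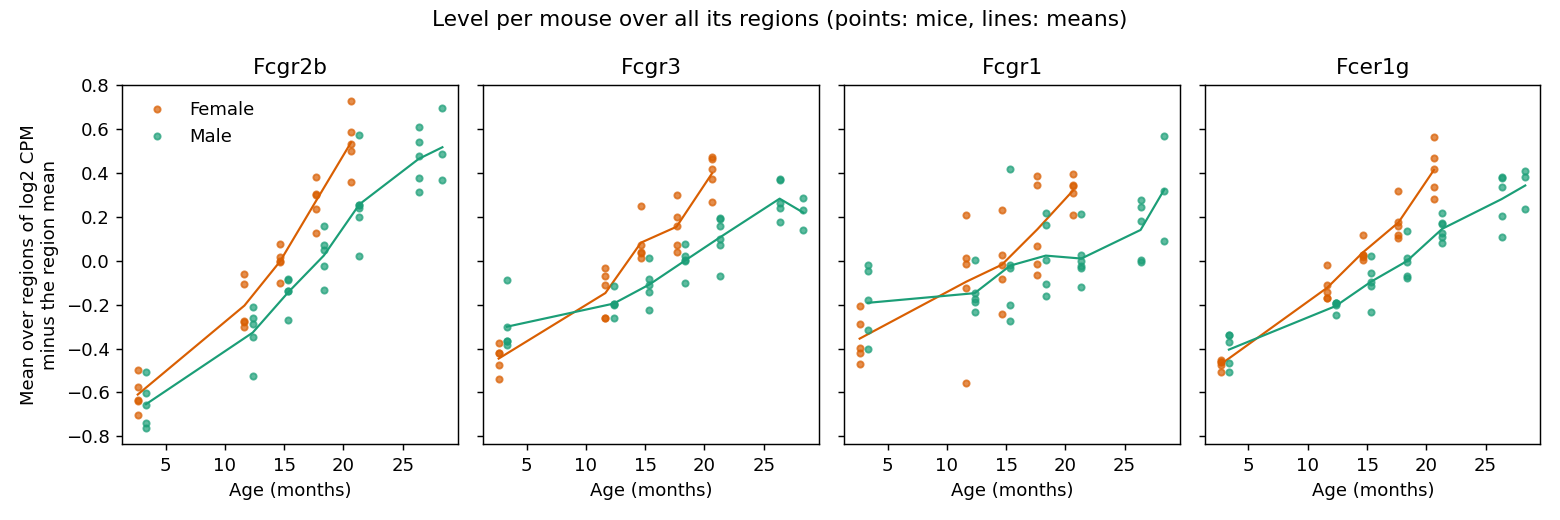
Level of 4 receptor genes per mouse (vertical axis, mean over regions of log2 CPM minus the mean of the region) against age in months, females in orange and males in green; points are mice, shifted sideways by sex, and lines join group means. At 21 months females lie above males on average for all 4 genes, and only males were sampled at 26 and 28 months.

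By region, 6 of 60 gene and region pairs differed between the sexes in edgeR, all lower in males, beside 1.63% of all pairs lower in males. In the corpus callosum, Fcer1g had 15.1, 24.7 and 35.4 CPM in 24 females (lowest, median, highest) and 13.2, 19.0 and 28.5 CPM in 26 males, a log2 difference of -0.31 (SE 0.06, adjusted p = 0.0019), where 0.343% of genes were lower in males. In the choroid plexus it had 11.0, 20.1 and 42.8 CPM in 24 females and 11.7, 16.1 and 26.4 CPM in 25 males (-0.28, SE 0.06, adjusted p = 0.012), beside 0.707% of genes lower in males, and the call was lost with depth covariates (adjusted p = 0.312). The ranges of the sexes overlapped in both regions. Fcgr2b in the hypothalamus had a median of 8.49 CPM in females and 5.69 in males (-0.37, SE 0.11, adjusted p = 0.031), beside 2.18% of genes. This call was also lost with depth covariates (adjusted p = 0.191). The other 3 calls were in the medulla, at -0.39 for Fcgr2b (SE 0.10, adjusted p = 0.0040), -0.35 for Fcgr3 (SE 0.08, adjusted p = 0.00077) and -0.30 for Fcer1g (SE 0.07, adjusted p = 0.0016). In the medulla 14.3% of all genes were called lower and 10.2% higher in males. Fcgr1 was lower in males in 7 of 15 regions and called in 0, with an unadjusted p under 0.05 in 1. No pair passed for the difference of slopes in edgeR or DESeq2 (0 of 60, beside 0.0694% of all pairs), and the unadjusted p was under 0.05 in 5 regions each for Fcer1g, Fcgr2b and Fcgr3 and in 0 for Fcgr1.

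Marker genes were compared between the sexes in the same way. Of the 12 homeostatic microglia genes, 3 were lower in males over the whole brain (Gpr34 by -0.33, Fcrls by -0.26 and Olfml3 by -0.068, limma adjusted p = 6.31e-14, 2.09e-08 and 0.0362) and 0 higher. Of 13 activated microglia genes 6 were lower, among them Tyrobp (-0.15, adjusted p = 0.000562). Of 2 neutrophil genes tested, S100a8 was higher in males by 0.76 (SE 0.21, adjusted p = 0.0156). With the microglia mean of each mouse as a covariate, chosen after seeing the data, the difference for Fcgr2b was -0.155 (adjusted p = 0.0199), and those for Fcer1g (-0.072, adjusted p = 0.147) and Fcgr3 (-0.060, adjusted p = 0.397) did not pass. Except at 12 months, females and males of an age carry separate blocks of mouse numbers, so sex and whatever followed the numbering cannot be told apart at the other ages. In the 10 mice of 12 months alone, all 4 differences were below 0 and 0 passed in limma (1 had an unadjusted p under 0.05, Fcer1g), with -0.098 for Fcgr2b (adjusted p = 0.629), -0.070 for Fcer1g (0.547) and -0.033 for Fcgr3 (0.874). Of all 13005 genes tested in these 10 mice, 0.123% passed in either direction, beside 7.84% in all 51 mice.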

How the data were processed

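Per the labels' protocols, tissue was homogenised, RNA was extracted with RNeasy columns, and Smart-Seq2 cDNA entered unstranded Nextera XT libraries. The deposited values are whole-number read counts per gene symbol and library. Trim Galore 0.3.7, STAR 2.5.3a, DESeq2 and the build GRCm38 are named in the submitters' processing notes; the counting program, annotation and any filter are not given in the sources used here. Unstranded counts cannot separate overlapping genes on opposite strands, and reads carry no molecular identifiers. Coordinates are from the GENCODE annotation of GRCm38 and matched 5 of 5 symbols; RefSeq promoters matched 5 of 5.

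The labels give each library's region, sex, age and mouse, so that animals are the replicates. Each region was fitted over all genes in R 4.3.3 by edgeR 4.0.16 (quasi-likelihood test, TMM factors, filterByExpr on age and sex groups, 2-sided, Benjamini-Hochberg within a region, threshold 0.05). Age slopes had sex as a covariate. Sex was tested over 3 to 21 months with age as a factor, or through the age by sex term. Whole-brain sex differences were tested with limma 3.58.1 on 1 value per mouse (prior count 2, genes passing in at least 10 regions). The code was tested on simulated data. CPM in the text uses library totals.

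Named genes were the members, the genes of functional and marker lists (within a list, those called in the most regions in each direction; some are not reported here), and the 3 genes most like each member among those of at least 1 CPM on average. The genes and lists were chosen with earlier results of these data known. Alternatives were RLE factors, no filter, DESeq2 1.42.0, subsets of mice, depth and microglia covariates, other pseudocounts and numerators, and leaving out mice. Tables and plots used Python 3.11.15, numpy 2.4.6, pandas 2.3.3 and matplotlib 3.10.9.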

Additional observations from a re-analysis of the deposited data

Results flagged for a closer look

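Groups of 4 to 10 values were screened for a highest or lowest value far from the rest (Dixon's 95% limit). Chance alone gives about 1 in 20 groups, and 9 of 100 stood out: 5 of 60 groups of libraries and 4 of 40 groups of mice. At 3 months in the olfactory bulb, mouse 33 was far above the others for both Fcgr1 (6.054 CPM, others 0.905 to 2.94) and Fcer1g (24.97 CPM, others 12.2 to 18.8). The same library had the highest sum of homeostatic microglia genes of its group (609.0 CPM, others 483.9 to 566.0), while its neutrophil sum (71.9 CPM) lay within the range of the others; their part was not tested. In the thalamus, mouse 17 had 0.0 CPM of Fcgr2b where the other 3-month libraries had 2.506 to 4.055, in a library of 528123 reads. In the medulla, mouse 21 had 2.246 CPM of Fcgr1 (others 0.687 to 1.42), a library of 1335731 reads. In the motor cortex, mouse 41 had 7.993 CPM of Fcer1g (others 11.4 to 14.2).

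Among whole-brain values per mouse on the log2 scale, female mouse 42 stood above the other 15-month females for Fcer1g (0.119, others 0.0018 to 0.028) and Fcgr3 (0.2517, others 0.014 to 0.072). Male mouse 25 stood above the other 3-month males for Fcgr3 (-0.08795, others -0.384 to -0.301), and male mouse 3 below the other 12-month males for Fcer1g (-0.2472, others -0.202 to -0.195). Leaving out any of these mice ended no call of a whole-brain sex difference.

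The age slopes of 2 genes differed between the sexes over the whole brain by the age by sex term: Fcgr3 (-0.02305 per month, male minus female, limma adjusted p = 0.00301, 51 mice) and Fcer1g (-0.01764 per month, adjusted p = 0.00316).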

How the results depend on the processing

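Mean age slopes kept their sign under every alternative run, and DESeq2 gave the same numbers of regions. They moved by more than their error in males alone (Fcgr1 0.0205, Fcgr2b 0.0485, Fcgr3 0.0260, Fcer1g 0.0320), in mice with all 15 regions (0.0311, 0.0580, 0.0364, 0.0400) and with the microglia covariate (0.0124, 0.0386, 0.0197, 0.0243). Regions called rising changed for Fcgr1 to 5 in mice 16 to 56 alone, 4 in males alone and 2 with the microglia covariate, and for Fcgr3 to 5 with that covariate; the first 2 use fewer mice. Smaller shifts in these settings or in mice with all 15 regions left at least 12 regions for Fcgr2b, 11 for Fcer1g, 9 for Fcgr3 and 6 for Fcgr1. The slope of the balance was -0.0205 with 2 reads added, -0.0251 with Fcgr1 and Fcgr4 as numerator, -0.0181 with Fcer1g and -0.0257 in males alone. Among the sex differences, 12-month mice alone left 0 of the 6 pairs called and no whole-brain call (Fcgr2b -0.0979, Fcgr3 -0.0331, Fcer1g -0.0705, from 10 mice). Whole-brain calls among all genes also fell in these mice, to 0.123%. The added microglia covariate gave -0.0602 for Fcgr3, -0.0717 for Fcer1g and a change of sign for Fcgr1 (0.0103). In slope, mice with all 15 regions gave -0.0171 for Fcgr3 and -0.0132 for Fcer1g, neither called, beside 0.0423% of all genes called. Mice 16 to 56 alone brought Fcgr1 past the threshold (-0.0236), beside 5.97% of all genes called. Among the lists, DESeq2 called 5 of 120 neutrophil, 8 of 75 NK cell, 12 of 75 T cell, 3 of 75 choroid plexus epithelium and 5 of 45 blood pairs rising, against 18 of 69, 3 of 3, 1 of 9, 7 of 60 and 9 of 45 in edgeR, so that tool and pairs tested differ together in all but the last. Where no cause is given, the cause was not tested.

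Leaving out each mouse in turn gave mean slopes of 0.0254 to 0.0286 for Fcgr1, 0.0528 to 0.0554 for Fcgr2b, 0.0319 to 0.0347 for Fcgr3 and 0.0366 to 0.0385 for Fcer1g, and regions called of 8, 14, 11 to 12 and 13 with 1 mouse of each of 12 age and sex groups left out. The whole-brain sex differences in level ran from -0.179 to -0.156 for Fcgr2b, -0.126 to -0.100 for Fcgr3, -0.128 to -0.110 for Fcer1g and -0.0904 to -0.0562 for Fcgr1, and in slope from -0.0157 to -0.0104, -0.0246 to -0.0198, -0.0187 to -0.0159 and -0.0260 to -0.0209. No paired analysis was possible because the ages and sexes compared share no mouse. Fcgr4 and, in shallow libraries, Fcgr1 and Fcgr2b are limited by depth.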

Other observations

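Genes that act with the receptors also differed in level between the sexes, in the whole-brain comparison of 25 females and 26 males from 3 to 21 months. Over all 13753 genes, limma called 620 lower and 458 higher in males. Of 16 genes that act with or below the ITAM, 5 were lower in males and 0 higher, among them Lyn (-0.12, adjusted p = 0.00154) and Tyrobp (-0.15, 0.000562). Of 9 phagocytosis and oxidase genes, 3 were lower and 0 higher, with the oxidase subunit Cybb at -0.40 (SE 0.08, adjusted p = 0.000636), Itgb2 at -0.18 and Cyba at -0.11. On the inhibitory side, Lilrb4a (-0.35, adjusted p = 0.00425) and Cd300a (-0.18, 0.00582) were lower among 7 ITIM receptors, and the phosphatase genes Inpp5d (-0.12, 0.00504) and Ptpn6 (-0.14, 0.00938) among 9 phosphatases and adaptors. The regulator Irf8 was lower by 0.107 (male minus female -0.107, adjusted p = 0.0184), 1 of 8 regulators, and Ifi27l2a 1 of 10 interferon response genes (-0.33, adjusted p = 0.0323). Except at 12 months, sex and the blocks of mouse numbers cannot be told apart for these genes either.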
